A study of Mus musculus with 8 samples.

Results

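Of 40 genes of mitosis and cytokinesis in the mouse cornea, 2 passed the test after dexamethasone eye drops, 1 higher and 1 lower, or 5%, where 15.1% of all tested rows passed. The 40 genes were given as a list of symbols and kept where the mean over all 8 libraries was at least 3 on the authors' log2 scale. All 40 met this, out of 24918 rows in the table and 14715 rows that reached the same mean and were tested. The mean over the 8 libraries ran from 7.12 for Spc25 to 11.23 for Mki67, so no member lay near the threshold.

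RNA was sequenced from whole corneas of male wild-type C57BL/6J mice. Every animal in either group lacked adrenal glands, the main source of endogenous glucocorticoids: these were removed when the mice were 8 weeks old, about 4 weeks before treatment. Dexamethasone, a synthetic glucocorticoid, was dropped onto the eyes of 1 group and vehicle onto those of the other, for 6 h. There were 4 dexamethasone and 4 vehicle libraries, made from pools of 4 to 6 corneas. How many mice gave a pool is unstated, so the p-values measure the spread between pools.

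Mitosis separates copied chromosomes into daughter nuclei and cytokinesis splits the cell. Entry is driven by the kinase CDK1 with its cyclins, attachment of chromosomes to the spindle is watched by a checkpoint, and exit follows when the anaphase-promoting complex, a ubiquitin ligase, marks cyclin B and securin for destruction. Transcripts of these genes accumulate late in the cell cycle, in G2 and M phase, under the control of the DREAM, B-MYB and FOXM1 factors, whereas replication genes peak earlier, at the start of S phase, under E2F factors. In the adult cornea, dividing cells lie mostly in the basal layer of the epithelium and at the limbus.

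The treatment label was borne out by known targets of the glucocorticoid receptor. Fkbp5, a co-chaperone of steroid receptors, lay between 14.47 and 14.58 in the dexamethasone libraries and between 13.51 and 13.73 in the vehicle libraries. Tsc22d3 and Per1 were likewise higher in all 4 dexamethasone libraries, with log2 fold changes of 0.59 and 0.42. Corneal identity was clear from Krt12, the corneal keratin gene, at 19.73 ± 0.06 after dexamethasone and 19.74 ± 0.02 after vehicle (SD, n = 4 each). The lymphocyte markers Cd3e, Cd8a and Cd79a had mean log2 values between -1.98 and 1.45. Globin genes were listed at 0 in every library, as were 5078 rows of the table in all. Since other values go below 0, a 0 is not read as a level, and it does not show that blood was absent. Of 13 immune cell markers found, 8 were tested, from Cd4 at 3.47 to Itgam at 12.95 after dexamethasone. Lyz2 had a log2 fold change of -0.23 (adjusted p = 0.0187, limma) and the other 7 did not pass. The erythroid gene Alas2 was at 6.75 after dexamethasone. Dexamethasone replicate 1 and vehicle replicate 3 stood apart in genes of wounded epithelium, such as Krt16: the mean of 9 such genes deviated from its mean over the 8 libraries by 0.28 and 0.89 there, and by -0.32 to -0.12 in the other 6 libraries. The count of called mitosis and cytokinesis genes was 2 with these libraries and 2 without them. Depth per library is unknown beyond the labels' statement of more than 40000000 reads per sample.

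Of the 40 mitosis and cytokinesis genes, Ube2c rose, Kif23 fell and 38 did not pass the test, at an adjusted p below 0.05 (limma with Benjamini-Hochberg adjustment over all 14715 tested rows). That is 5% of the list, where 15.1% of all tested rows were called, 9.04% higher and 6.03% lower. The share of all rows called was 9.59% without vehicle replicate 4. The median log2 fold change (dexamethasone minus vehicle) was 0.038 over the 40 genes and -0.0029 over all tested rows. Of the 40 values 30 were above 0, or 75%, against 48.5% of all tested rows. The 40 genes varied together from pool to pool, so their signs are not separate observations. Without vehicle replicate 2, the log2 fold changes of Top2a, Ccna2, Bub1b, Tpx2, Kif4, Kif2c and Kif11 fell below 0. Without vehicle replicate 4, those of Plk1, Incenp, Bub1, Nuf2, Spc25, Tacc3 and Cdc20 rose above 0. Among 129 other mitosis genes, described below, 39.5% of values were above 0. The libraries of the groups did not overlap for 4 of the 40 genes, 2 higher and 2 lower, or 10%, against 20.7% of all tested rows. In bulk tissue, the number of cycling cells and the RNA per cycling cell cannot be told apart.

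**Figure D1:**
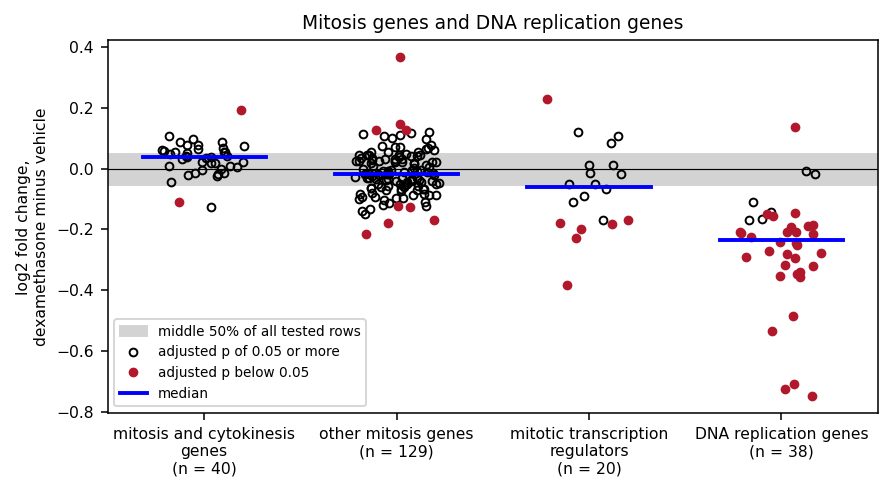
Log2 fold change (dexamethasone minus vehicle) of each gene in 4 lists, with 1 point per gene, the median as a blue line and the middle 50% of all 14715 tested rows as a grey band. The mitosis and cytokinesis genes sit around their median of 0.038, while the DNA replication genes sit around -0.23.

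Ube2c was the gene that rose. It encodes the ubiquitin-conjugating enzyme that works with the anaphase-promoting complex to start the destruction of mitotic cyclins. Ube2c (Entrez 68612; mm9 chromosome 2, 164595398 to 164604322) had log2 values of 9.04, 8.989, 8.999 and 8.92 in dexamethasone replicates 1 to 4, against 8.83, 8.65, 8.84 and 8.85 in vehicle replicates 1 to 4. Every dexamethasone library was above every vehicle library, and vehicle replicate 2 was the lowest of all. The log2 fold change was 0.19 (SE 0.05, 95% confidence interval 0.087 to 0.298, adjusted p = 0.0200, limma), a 1.14-fold rise. Without vehicle replicate 2 the log2 fold change was 0.14 (adjusted p = 0.0346, limma). The call held in all 18 alternatives, with adjusted p between 0.0123 and 0.0497 (limma). Exons of Ube2c overlap those of Tnnc2 on the opposite strand, and Tnnc2 had a mean log2 value of 2.63, with 2.60 to 2.63 in the dexamethasone libraries and 2.59 to 2.79 in the vehicle libraries.

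Kif23 was the gene that fell. It encodes the kinesin of centralspindlin, the complex that bundles microtubules between the separating chromosomes and recruits the factors of the cleavage furrow. Kif23 (Entrez 71819; mm9 chromosome 9, 61765087 to 61794606) had log2 values of 10.28, 10.27, 10.28 and 10.25 in dexamethasone replicates 1 to 4, against 10.43, 10.32, 10.33 and 10.43 in vehicle replicates 1 to 4. The dexamethasone libraries lay close together and all below the vehicle libraries, of which replicates 1 and 4 were the highest. The log2 fold change was -0.11 (SE 0.03, 95% confidence interval -0.182 to -0.036, adjusted p = 0.0483, limma), or 0.93-fold. This call was the less firm of the pair: it was lost on leaving out any dexamethasone library, and on leaving out vehicle replicate 1 or 4, with adjusted p between 0.074 and 0.144 (limma). Its partner in centralspindlin, Racgap1, which encodes a GTPase-activating protein, was 10.76 ± 0.06 after dexamethasone and 10.75 ± 0.08 after vehicle (SD, n = 4 each).

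Kif20a and Mad2l1 separated the groups without passing the test. Kif20a encodes the kinesin that carries the chromosomal passenger complex to the central spindle. It had log2 values of 9.97, 9.94, 9.95 and 10.01 in dexamethasone replicates 1 to 4, against 9.90, 9.87, 9.83 and 9.93 in vehicle replicates 1 to 4. The gap between the groups was narrow, at 0.087 in log2 fold change (SE 0.03, adjusted p = 0.0837, limma). Kif20a shares exon sequence on the opposite strand with Cdc23, which had a log2 fold change of 0.022 (adjusted p = 0.734, limma). Mad2l1 encodes the checkpoint protein MAD2, which holds back the anaphase-promoting complex until chromosomes are attached. Its log2 values were 7.74, 7.71, 7.76 and 7.75 in dexamethasone replicates 1 to 4, against 7.825, 7.825, 7.79 and 8.02 in vehicle replicates 1 to 4. Vehicle replicate 4 stood above the other vehicle libraries, and the log2 fold change was -0.13 (SE 0.05, adjusted p = 0.102, limma), or -0.076 without that library.

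**Figure D2:**
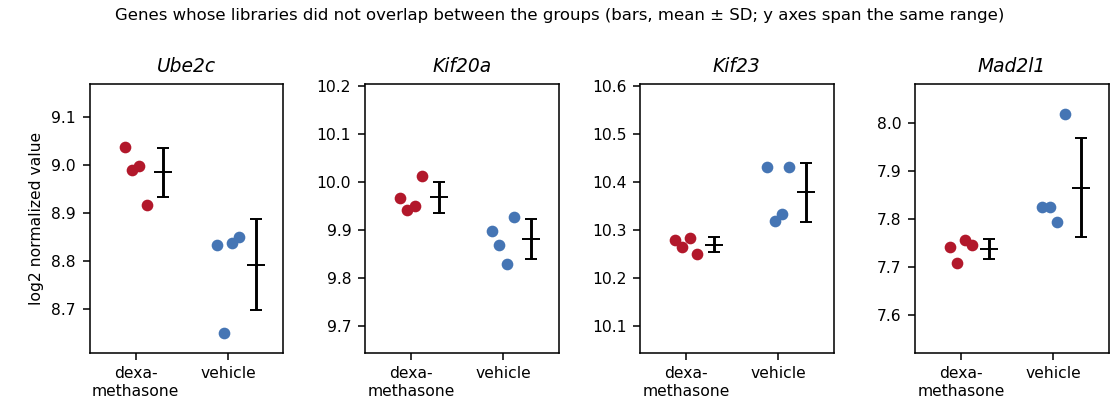
Log2 normalized values of the 4 mitosis and cytokinesis genes whose libraries did not overlap between the groups, with 1 point per library (4 dexamethasone, red; 4 vehicle, blue) and mean ± SD as black bars. Ube2c and Kif20a were higher in all dexamethasone libraries, and Kif23 and Mad2l1 were lower in all of them; Ube2c and Kif23 passed the test.

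The genes most used as markers of dividing cells, Mki67 and Top2a, did not pass the test. Mki67, which encodes the Ki-67 protein that coats mitotic chromosomes, had log2 values of 11.25, 11.16, 11.29 and 11.26 in dexamethasone replicates 1 to 4, against 11.32, 11.13, 11.11 and 11.28 in vehicle replicates 1 to 4. The groups overlapped fully, and the 95% confidence interval of the log2 fold change of Mki67 ran from -0.078 to 0.138 (adjusted p = 0.734, limma). Top2a, which encodes the topoisomerase that untangles sister chromatids, had 10.91, 10.89, 11.02 and 10.95 after dexamethasone, against 11.07, 10.82, 10.91 and 10.94 after vehicle. Its highest and its lowest library were both vehicle libraries, and the interval of its log2 fold change was -0.099 to 0.118.

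CDK1 and its cyclins drive entry into mitosis, and none of these 4 genes passed the test. Cdk1 had log2 values of 8.18, 8.03, 8.29 and 8.01 in dexamethasone replicates 1 to 4, against 8.12, 8.00, 8.10 and 8.04 in vehicle replicates 1 to 4. The dexamethasone libraries spread more widely than the vehicle libraries, and the log2 fold change of Cdk1 was 0.064 (SE 0.06, adjusted p = 0.507, limma). Ccnb1, which encodes cyclin B1, had 7.76, 7.79, 7.62 and 7.69 after dexamethasone, against 7.70, 7.61, 7.71 and 7.70 after vehicle. Ccnb1 was lowest in vehicle replicate 2, with dexamethasone replicate 3 close to it, and its log2 fold change was 0.038 (SE 0.04). The other cyclin genes, Ccnb2 and Ccna2, had log2 fold changes of 0.049 and 0.0069.

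The mitotic kinases and the chromosomal passenger complex gave 7 genes with no call. Plk1, a kinase of spindle assembly and mitotic exit, had log2 values of 8.36, 8.49, 8.48 and 8.34 in dexamethasone replicates 1 to 4, against 8.34, 8.35, 8.40 and 8.59 in vehicle replicates 1 to 4. Vehicle replicate 4 was the highest library for Plk1, and the log2 fold change was -0.0035 (SE 0.06, adjusted p = 0.978, limma). Aurka, the kinase of centrosomes and spindle poles, had 0.056, and Nek2, a kinase of centrosome separation, had 0.055. Aurkb, the catalytic subunit of the passenger complex, which corrects faulty attachments, had log2 values of 8.25, 8.31, 8.32 and 8.24 after dexamethasone, against 8.31, 8.20, 8.17 and 8.29 after vehicle. The groups overlapped for Aurkb, at 0.036 in log2 fold change (SE 0.04, adjusted p = 0.605, limma). The other subunit genes had 0.078 for Birc5, which encodes survivin, -0.015 for Incenp, the scaffold, and -0.044 for Cdca8, which encodes borealin.

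No gene of the spindle checkpoint, the centromere or the kinetochore passed the test. Bub1, a checkpoint kinase at the kinetochore, had log2 values of 7.91, 7.97, 7.96 and 7.99 in dexamethasone replicates 1 to 4, against 8.00, 7.86, 7.93 and 8.10 in vehicle replicates 1 to 4. The vehicle libraries of Bub1 spread on either side of the dexamethasone libraries, and the log2 fold change was -0.014 (SE 0.05, adjusted p = 0.886, limma). Bub1b, which encodes the checkpoint protein BUBR1, and Ttk, which encodes the kinase MPS1, had log2 fold changes of 0.022 and 0.040. The genes of the NDC80 complex, which grips microtubule ends, had 0.053 for Ndc80, -0.024 for Nuf2 and -0.0020 for Spc25. Cenpa, which encodes the histone H3 variant of centromeres, had 0.073, the kinetochore kinesin gene Cenpe had 0.062, and Cenpf, which encodes a kinetochore protein that also appears in G2 nuclei, had 0.077. The adjusted p-values of these 6 centromere and kinetochore genes lay between 0.316 and 0.983 (limma).

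Of 9 genes of spindle motors and spindle proteins 8 had log2 fold changes above 0 and none passed. Tpx2, Kif4, Kif2c and Kif11 were below 0 without vehicle replicate 2, and Tacc3 was above 0 without vehicle replicate 4. Kif11, which encodes the motor that pushes spindle poles apart, had log2 values of 9.27, 9.24, 9.36 and 9.27 in dexamethasone replicates 1 to 4, against 9.35, 9.09, 9.23 and 9.29 in vehicle replicates 1 to 4. Only vehicle replicate 2 lay clearly below the other libraries of Kif11, and the log2 fold change was 0.041 (SE 0.05, adjusted p = 0.649, limma). Ckap2, which encodes a microtubule-associated protein of the spindle, had the largest value of this group: 8.80, 8.81, 8.86 and 8.95 after dexamethasone, against 8.77, 8.70, 8.64 and 8.87 after vehicle. Vehicle replicate 4 lay within the range of the dexamethasone libraries, and the log2 fold change of Ckap2 was 0.11 (SE 0.05, adjusted p = 0.193, limma). Hmmr, which encodes a hyaluronan receptor that also binds spindle poles, had 8.75, 8.81, 8.89 and 8.84 after dexamethasone, against 8.76, 8.65, 8.68 and 8.81 after vehicle. The groups overlapped for Hmmr, at 0.098 in log2 fold change (SE 0.04, adjusted p = 0.151, limma). The others were Nusap1 at 0.086, Dlgap5 at 0.058, Kif2c, a gene for a microtubule-depolymerizing kinesin, at 0.021, the chromokinesin gene Kif4 at 0.017, Tpx2, which encodes an activator of Aurora A, at 0.0055, and Tacc3 at -0.021.

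Exit from mitosis and cytokinesis held both called genes. Cdc20, which encodes the activator that brings substrates to the anaphase-promoting complex, did not pass the test, unlike Ube2c, and no test of the difference between them was made: its log2 values were 8.98, 9.05, 9.02 and 8.95 in dexamethasone replicates 1 to 4, against 8.95, 9.05, 8.99 and 9.08 in vehicle replicates 1 to 4. The groups overlapped fully, and the 95% confidence interval of the log2 fold change of Cdc20 was -0.100 to 0.064 (adjusted p = 0.798, limma). Exons of Cdc20 overlap those of Elovl1 on the opposite strand. Elovl1 had a mean log2 value of 11.17 and a log2 fold change of -0.047 (adjusted p = 0.642, limma). Anln, which encodes the contractile ring scaffold anillin, had 10.35, 10.37, 10.435 and 10.38 after dexamethasone, against 10.40, 10.23, 10.31 and 10.44 after vehicle. The vehicle libraries of Anln spread on either side of the dexamethasone libraries, with a log2 fold change of 0.039 (SE 0.04). Prc1, which encodes the protein that cross-links antiparallel microtubules of the central spindle, had 0.054, and Ect2, which encodes the activator of RhoA at the cleavage furrow, had 0.066.

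**Figure D3:**
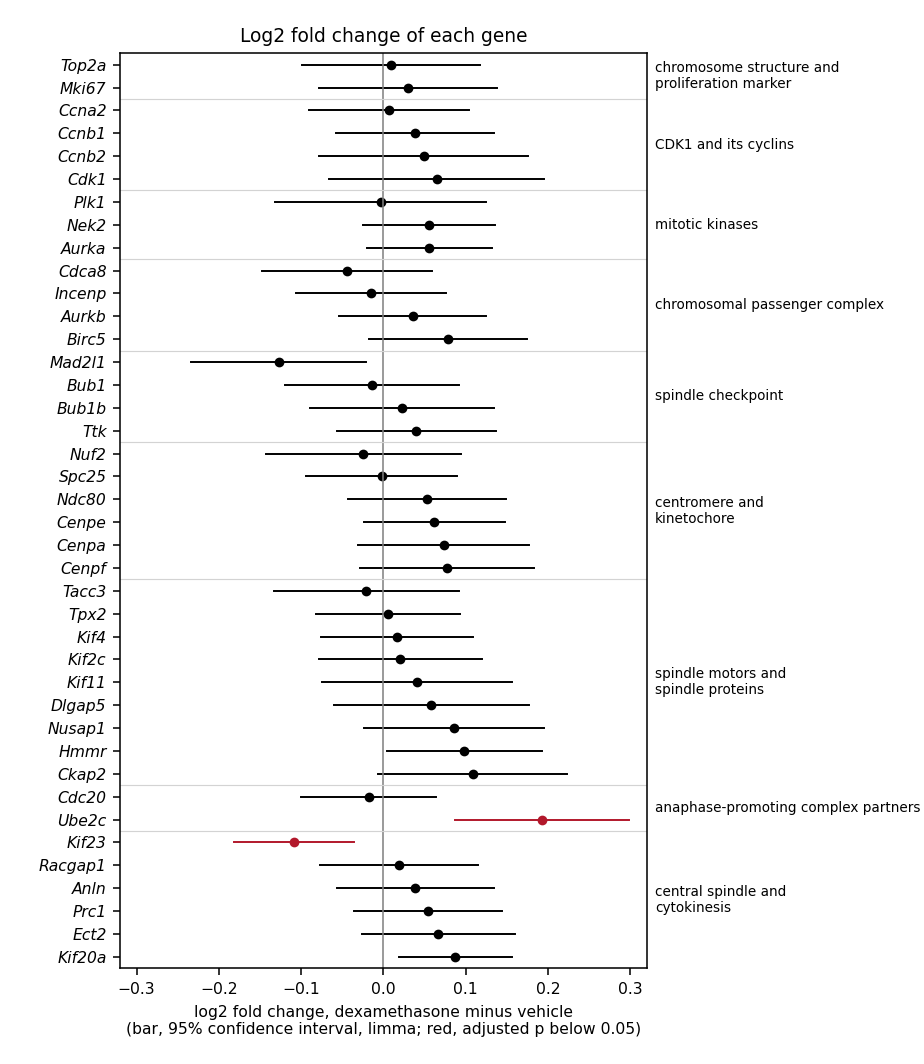
Log2 fold change (dexamethasone minus vehicle) of each of the 40 mitosis and cytokinesis genes as a point with its 95% confidence interval, grouped by role, with genes past the test in red. The values ran from -0.13 for Mad2l1 to 0.19 for Ube2c, and 37 of the 40 intervals lay within 0.2 on either side of 0.

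The intervals bound the size of a change on the deposited log2 scale. For 37 of the 40 genes the whole 95% confidence interval lay between -0.2 and 0.2 on the log2 scale, and for 39 it lay between -0.25 and 0.25, with Ube2c as the exception. The genes outside the narrower bound were Ube2c, Mad2l1 and Ckap2. Among all tested rows 11575 of 14715 intervals lay within the narrower bound, so narrow intervals were common in this table. These intervals refer to the deposited log2 values, which are shrunken at low levels. Shrinkage at the higher levels of the members was not tested. Any there would make their fold changes and intervals smaller.

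The members varied together from pool to pool, most of all among the vehicle pools. The mean over the 40 genes was 8.92 ± 0.03 after dexamethasone and 8.89 ± 0.07 after vehicle (SD, n = 4 each), with a range of 8.90 to 8.96 over the dexamethasone libraries and 8.81 to 8.95 over the vehicle libraries. Vehicle replicate 2 was the lowest vehicle library for 24 of the 40 genes, or 60%, against 23.3% of all tested rows, and the highest for 0. Vehicle replicate 4 was the highest for 22, or 55%, against 21.3% of all tested rows, and the lowest for 0. This was in part shared by other lists. Vehicle replicate 2 was lowest for 42.6% of other mitosis genes. For DNA replication genes its share was 28.9%, near that of all tested rows, and vehicle replicate 3 was lowest most often, at 47.4%. Vehicle replicate 4 was highest for 41.1% of other mitosis genes and 78.9% of DNA replication genes. Among the dexamethasone libraries, replicate 3 was the highest for 24 genes, or 60%, against 24.9% of all tested rows and 39.5% of other mitosis genes. The SD was larger in the vehicle group for 33 of the 40 genes, or 82.5%, against 47.7% of all tested rows. The median SD of a member was 0.053 after dexamethasone and 0.079 after vehicle.

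**Figure D4:**
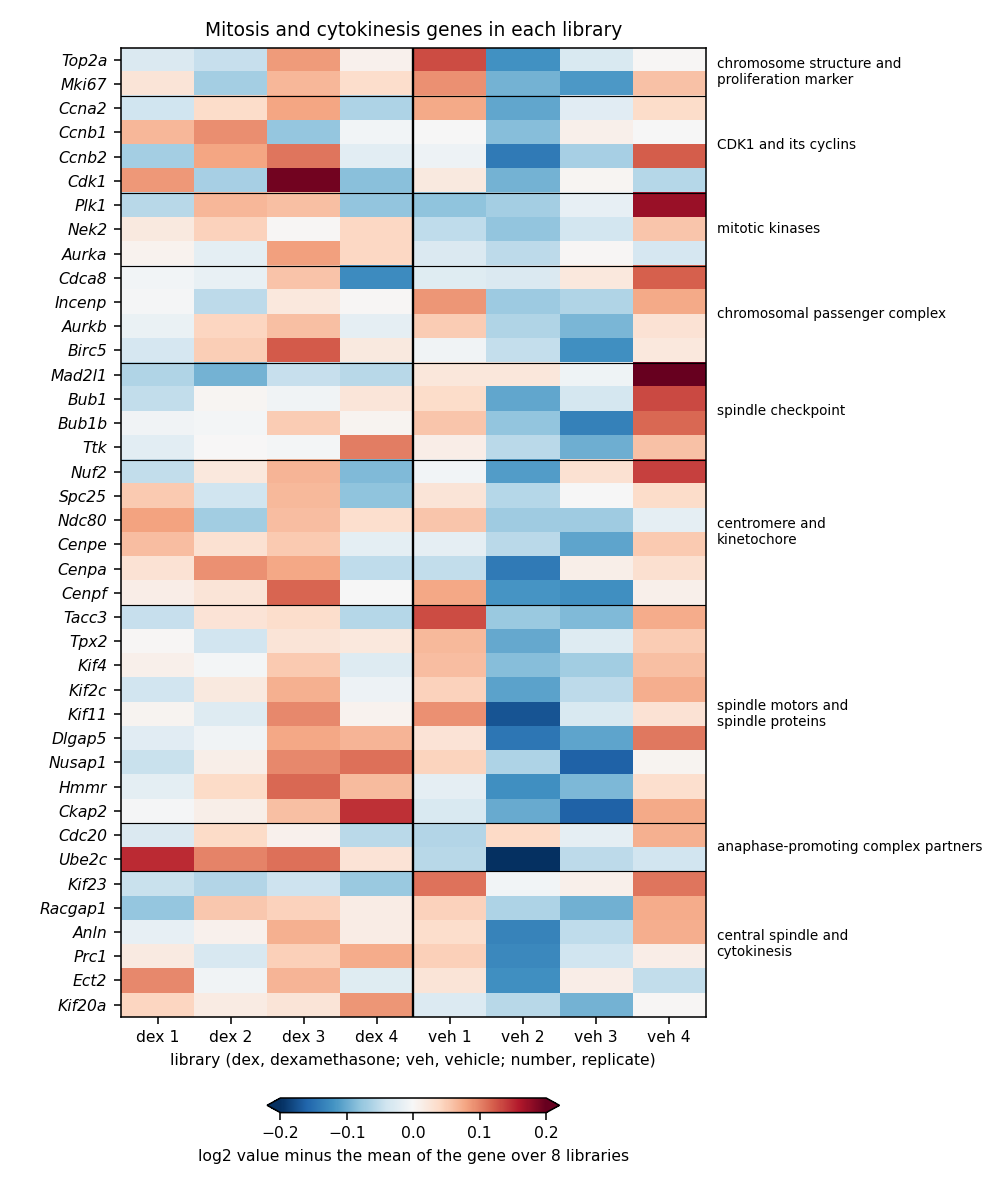
Each of the 40 genes (rows, grouped by role) in each library (columns, dexamethasone left and vehicle right), as the log2 value minus the mean of the gene over the 8 libraries. Vehicle replicate 2 is low and vehicle replicate 4 high for most rows, while Kif23 and Mad2l1 are lower and Ube2c and Kif20a higher in every dexamethasone library.

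Markers of the basal epithelium, where most dividing corneal cells lie, were set beside the members. The mean of 7 basal markers deviated most in vehicle replicate 3, by 0.23, where the mean of the 40 genes deviated by -0.054. In vehicle replicate 4, where the mean of the 40 genes deviated by 0.053, the basal markers deviated by -0.028, and in vehicle replicate 2, where the 40 genes were lowest at -0.087, they deviated by -0.052. Of these 7 markers, Krt5, a keratin gene, fell by 0.23 on the log2 scale (adjusted p = 0.0113, limma) and the other 6 did not pass. Bulk RNA does not show whether Krt5 is confined to basal cells here. With quantile normalization Krt5 had -0.058 (adjusted p = 0.267, limma). The log2 of the summed level of the 7 markers was 19.21 to 19.32 in the dexamethasone libraries and 19.37 to 19.44 in the vehicle libraries, without overlap. Krt5 has the highest level in that sum and weighs most in it, so the sum is not a measure of basal cells. The mean of the 7 log2 values overlapped, at 15.01 to 15.17 in the dexamethasone libraries and 15.05 to 15.33 in the vehicle libraries. Trp63, which encodes the p63 factor of basal cells, was higher in every dexamethasone library, with a log2 fold change of 0.098 (adjusted p = 0.0853, limma). Itga6 had 0.10, Krt15 0.037, Col17a1 -0.020, Itgb4 -0.12 and Krt14 -0.29. Of the 9 wounded epithelium genes, whose mean was highest in vehicle replicate 3, 0 were called (limma), with 1 below an unadjusted p of 0.05. The mean of 6 conjunctival and limbal markers deviated by -0.130 in vehicle replicate 2, by 0.161 in vehicle replicate 3 and by -0.024 in vehicle replicate 4. The part of these differences in the values of the 40 genes was not tested.

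**Figure D5:**
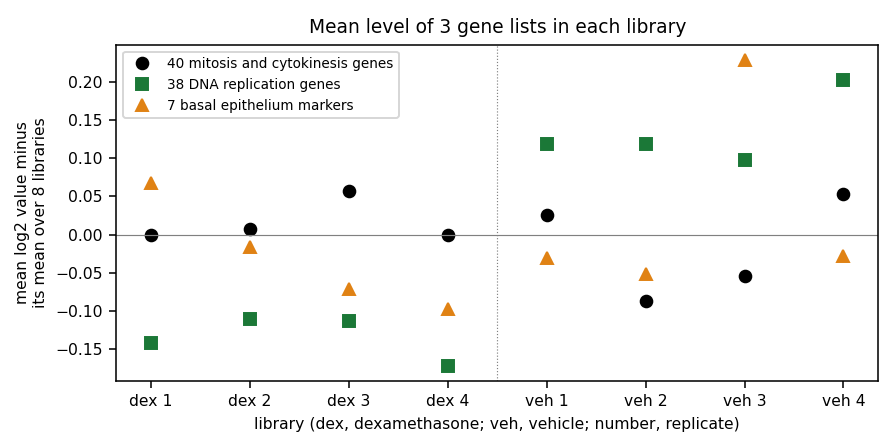
Mean log2 value of 40 mitosis and cytokinesis genes, 38 DNA replication genes and 7 basal epithelium markers in each library, each as the deviation from its mean over the 8 libraries. The replication genes lie below 0 in all dexamethasone libraries and above 0 in all vehicle libraries, while the 40 genes overlap between the groups.

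A wider set of mitosis genes outside the 40 also held few calls. Of 129 such genes, covering kinetochore, condensin, cohesin, the anaphase-promoting complex, CDK1 regulators, centrosome duplication and abscission, 4 rose, 5 fell and 120 did not pass, with a median log2 fold change of -0.018. The called share was 6.98%, against 15.1% of all tested rows. The number called was 4 without dexamethasone replicate 4 and 5 without vehicle replicate 4.

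Wee1 changed most in that set. It encodes the kinase that holds CDK1 inactive before mitosis, and it had log2 values of 10.93, 11.00, 11.02 and 11.01 in dexamethasone replicates 1 to 4, against 10.65, 10.60, 10.62 and 10.63 in vehicle replicates 1 to 4. All dexamethasone libraries of Wee1 (mm9 chromosome 7, 117265864 to 117285626) lay far above all vehicle libraries, at 0.37 in log2 fold change (SE 0.03, adjusted p = 1.57e-05, limma). Cdc25b, which encodes a phosphatase that removes the mark WEE1 adds, rose by 0.13, but the call held in only 7 of 18 alternatives and was lost without any single library except vehicle replicate 4. Trip13, which encodes the ATPase that takes MAD2 apart from its checkpoint partners, had -0.21 (adjusted p = 0.00192, limma) and Kntc1, which encodes a kinetochore protein that recruits MAD1 and MAD2, had -0.18 (adjusted p = 0.0141, limma). Wee1, Trip13 and Kntc1 kept their calls in all 18 alternatives.

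The remaining calls of that set were each lost in some alternatives. Ncapg2, a condensin II gene, had -0.17. It lost its call without dexamethasone replicate 2, without vehicle replicate 4, and without dexamethasone replicate 1 and vehicle replicate 3 together (adjusted p up to 0.0716 over the alternatives, limma). Numa1, which encodes a spindle pole protein, had 0.13. Its call was lost with a replicate block, on leaving out replicate 3 or 4 of either group, and with quantile normalization (up to 0.138, with the last). Troap had 0.15. It lost its call with a replicate block and on leaving out replicate 1 or 2 of either group or dexamethasone replicate 4. The call was also lost without dexamethasone replicate 1 and vehicle replicate 3 together (up to 0.0776). Sept7, a septin gene of the cleavage furrow, had -0.12 and lost its call with no filter and with median centring. It also lost it on leaving out replicate 3 or 4 of either group, dexamethasone replicate 2 or vehicle replicate 1 (up to 0.104). Anapc11, the RING subunit gene of the anaphase-promoting complex, had -0.12 (adjusted p = 0.0458, limma) and was named after its value was seen. Anapc11 lost its call with a replicate block, with no filter and with quantile normalization. It also lost it on leaving out replicate 1 or 4 of either group, dexamethasone replicate 3 or vehicle replicate 2 (up to 0.118).

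The DNA replication genes were set beside the mitosis genes in the same libraries. Of 38 replication genes 31 fell, 1 rose and 6 did not pass, with a median log2 fold change of -0.23; 84.2% of the list was called, against 15.1% of all tested rows, of which 6.03% were lower. Their mean was 8.08 ± 0.03 after dexamethasone and 8.35 ± 0.05 after vehicle (SD, n = 4 each), and the libraries did not overlap. Among genes of the replicative helicase, the log2 fold change was -0.75 for Mcm3, -0.72 for Mcm2, -0.71 for Mcm5 and -0.54 for Mcm6, all with adjusted p between 1.1e-05 and 2.91e-05 (limma). Rrm1, a ribonucleotide reductase gene named after its value was seen, was the gene that rose, by 0.14 (adjusted p = 0.0449, limma). The call of Rrm1 held in 7 of 18 alternatives and was lost on leaving out replicate 2 or 3 of either group, dexamethasone replicate 4 or vehicle replicate 1 (adjusted p up to 0.113, limma). Both lists were chosen with earlier results of these data known, and the difference between them is given as these counts and medians, with no test of its own.

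Among 20 genes of the factors that control cell cycle transcription, 6 fell and 1 rose, or 35% called, against 15.1% of all tested rows. E2f1, an activator of replication genes, was 6.29 ± 0.02 after dexamethasone and 6.68 ± 0.10 after vehicle (SD, n = 4 each), which put the difference at -0.38 (SE 0.05, adjusted p = 0.000244, limma). Tfdp1, the E2F partner gene, had -0.23, Mybl2, which encodes B-MYB, had -0.18, and Rbl1, which encodes the repressor p107, had -0.17. Rbl2, which encodes the DREAM subunit p130 that represses cell cycle genes in resting cells, rose by 0.23 (SE 0.03, adjusted p = 0.000786, limma). E2f3 and Trp53 had -0.20 and -0.18. E2f3 lost its call on leaving out vehicle replicate 1, dexamethasone replicate 3 or 4, or dexamethasone replicate 1 with vehicle replicate 3. Trp53 lost its call with a replicate block and on leaving out replicate 4 of either group (adjusted p up to 0.0715 for E2f3 and Trp53, limma). Foxm1, the forkhead factor that activates G2 and M phase genes, had log2 values of 9.39, 9.32, 9.47 and 9.35 in dexamethasone replicates 1 to 4, against 9.32, 9.24, 9.22 and 9.26 in vehicle replicates 1 to 4. The highest vehicle library of Foxm1 lay just above the lowest dexamethasone library, and the difference of 0.12 (SE 0.04, adjusted p = 0.0566, limma) did not pass. Foxm1 passed without dexamethasone replicate 2 (adjusted p = 0.0430) or vehicle replicate 1 (adjusted p = 0.0449), with robust moderation (adjusted p = 0.0498) and with library quality weights (adjusted p = 0.0452, limma), in 4 of 18 alternatives.

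The promoters of the 40 members and of the replication genes differ in known elements. These are shown for the called members Ube2c and Kif23, and for Ccnb2 and Cdc20 as members that did not pass. Mcm5 is shown as a replication gene that fell. The windows are from RefSeq on GRCm38.p6, with 250 bases before and 50 after each annotated start, read on the strand of the gene; 34 of the 40 members matched, with 36 windows, and Aurkb, Ccna2, Dlgap5, Incenp, Kif20a and Tpx2 did not. The letters searched on both strands were TTTGAA, the core of the cell cycle genes homology region (CHR) bound by DREAM and the B-MYB complex, CCAAT, the box bound by NF-Y, and 3 runs of E2F letters. These E2F runs were TTCCCGC, then also TTCGCGC, and as the last TTGGCGC. Each stretch of the first 4 genes runs from 100 bases before the start to 10 bases after it, with TTTGAA and CCAAT letters in capitals on either strand.
Ube2c, chr2:164769829-164769938, plus strand: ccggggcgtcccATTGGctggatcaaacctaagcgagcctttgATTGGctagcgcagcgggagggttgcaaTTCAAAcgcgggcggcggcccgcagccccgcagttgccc
Kif23, chr9:61946790-61946899, minus strand: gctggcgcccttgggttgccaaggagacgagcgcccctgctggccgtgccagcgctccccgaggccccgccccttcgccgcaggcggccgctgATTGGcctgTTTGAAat
Ccnb2, chr9:70421545-70421654, minus strand: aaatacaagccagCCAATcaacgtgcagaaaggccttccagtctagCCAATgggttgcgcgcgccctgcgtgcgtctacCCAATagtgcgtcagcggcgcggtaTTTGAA
Cdc20, chr4:118437334-118437443, minus strand: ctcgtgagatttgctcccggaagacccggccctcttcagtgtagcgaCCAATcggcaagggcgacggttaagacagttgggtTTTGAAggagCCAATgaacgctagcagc
The stretch of Mcm5 begins 190 bases before its start and is 110 bases long, with the E2F letters in capitals, where a match on each strand overlaps in the longer run.
Mcm5, chr8:75109319-75109428, plus strand: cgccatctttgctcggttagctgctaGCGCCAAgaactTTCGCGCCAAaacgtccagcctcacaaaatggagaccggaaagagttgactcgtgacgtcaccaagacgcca

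All 4 mitosis stretches held a TTTGAA match within 30 bases of the start together with at least 1 CCAAT box, in the called Ube2c and Kif23 as in the uncalled Ccnb2 and Cdc20. Over all matched members, TTTGAA occurred in 27 of 36 windows, or 75%, against 12.1% of 14625 windows of tested rows and 17.9% of all 32851 windows in the table. A CCAAT box occurred in 28 of the 36 windows, against 37.2% of the windows of tested rows, and TTTGAA with CCAAT in 24. The E2F letters occurred in 6 of the 36 windows, against 13.4% of the windows of tested rows. In the replication genes the order of TTTGAA and E2F was the other way: 4 of 34 windows held TTTGAA and 21 of 34 held the E2F letters. A CCAAT box occurred in 19 of these 34 windows, or 55.9%, also above the share of tested rows. The other mitosis genes lay between the members and the replication genes for TTTGAA, in 36.8% of 125 windows, and for the E2F letters, in 26.4%. Their share with a CCAAT box was 55.2%. The full palindrome of a glucocorticoid response element was found in 0 of the 36 windows and in 3 of all 32851. These are matches of letters within short windows, not measured binding sites.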

How the data were processed

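The tools named are Bowtie2, HTSeq and DESeq2, and the build mm9, per the submitters' processing notes; reads were paired-end, 75 bp, per the labels' protocols. The deposited log2 normalized values were made by the authors; for annotation, strand setting and transformation, nothing is given in the sources used here. For 812 rows averaging 2 to 3, libraries of a group had a median SD of 0.021, against 0.51 for a Poisson count of 8, so the log2 values behave as shrunken and fold changes of low genes are understated.

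All 14715 rows averaging 3 or more were fitted with limma 3.58.1 in R 4.3.3 (group as the only term, empirical Bayes with trend, two-sided, Benjamini-Hochberg adjustment over all tested rows, called below 0.05). Other values were computed in Python 3.11.15 with pandas 2.3.3. All members were described; values in every library were given for called members, 10 members picked by role and the 4 uncalled members with the largest change. From the other lists, up to 8 called genes by adjusted p (4 for replication) and Foxm1 were named, with values in every library for Wee1 and Foxm1 and a fold change for the rest. The members and lists were chosen with earlier results of these data known. Of 130 other mitosis symbols 129 were found. Coordinates refer to mm9 and come from GENCODE vM1, where all 40 members matched 1 gene. Exons of 8 members overlap another gene, and reads from opposite strands cannot be told apart without a stated strand setting; Ccnb2 and Kif4 have named pseudogenes and are uncertain.

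Alternatives were a replicate block, no filter, a minimum mean of 5, a pseudocount of 8, quantile normalization, median centring, library quality weights, robust moderation, no variance trend, leaving out each library in turn, and leaving out dexamethasone replicate 1 with vehicle replicate 3. Read depth per value is unknown, so no counting interval is given.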

Additional observations from a re-analysis of the deposited data

Results flagged for a closer look

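Among 126 sets of 4 libraries (63 genes in 2 groups), 4 held a library so far from the other 3 that its gap, divided by the group's range, passed Dixon's 95% critical value; chance flags about 1 in 20 groups, here 6.3. Vehicle replicate 2 was the isolated low library for Ube2c (gap over range 0.911; 8.65 against 8.83 to 8.85 in the other vehicle libraries) and for Ccnb1 (0.880; 7.61 against 7.70 to 7.71). Vehicle replicate 4 was the isolated high library for Mad2l1 (0.860; 8.02 against 7.79 to 7.83). Dexamethasone replicate 4 was the isolated high library for Rbl1 (0.864; 10.07 against 9.98 to 9.99).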

How the results depend on the processing

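Of the 40 mitosis and cytokinesis genes, 38 were not called under any of the 18 alternatives, Ube2c was called in all 18 and Kif23 in 9. The count of called members was therefore 2 or 1: it was 1 with a replicate block, with no filter (more rows tested) and with median centring, where Kif23 had adjusted p of 0.0844, 0.0702 and 0.0575 (limma), and 1 to 2 on leaving out a library. The count of all called rows was 1411 to 2131 on leaving out a library, the lowest without vehicle replicate 4, and 2202 without dexamethasone replicate 1 and vehicle replicate 3 together. The other mitosis genes had 5 calls with a replicate block 4 to 9 on leaving out a library and 10 without dexamethasone replicate 1 and vehicle replicate 3 together; with 13 calls under library quality weights or 6 with no filter the count stayed within 1.5 times. Replication genes had 30 to 35 calls under all alternatives. The replicate numbers share no stated source. Same-numbered libraries had correlations of -0.314 to 0.185 in their deviations from the group means, 2 of 4 over 0.1. Dexamethasone replicate 1 and vehicle replicate 3 had 0.649. Deviations within a group of 4 depend on each other, so these correlations cannot decide whether the numbers pair the samples. The block gave 1675 called rows. It put Numa1 (adjusted p = 0.0731), Troap (0.0532), Cdc25b (0.0904), Anapc11 (0.0791), Rrm1 (0.0877) and Trp53 (0.0599, limma) above the threshold of 0.05. The sign turned in some alternative for 16 of the 40, all near 0 and uncalled. With quantile normalization Top2a had -0.011, Racgap1 -0.0045, Plk1 0.0037 and Spc25 0.0098; with median centring Spc25 had 0.00011; with library quality weights Bub1b had -0.0073 and Tpx2 -0.0015; and without dexamethasone replicate 1 and vehicle replicate 3 together Mki67 had -0.0070, Plk1 0.0085, Bub1b -0.013, Tpx2 -0.0019 and Kif4 -0.0045. On leaving out a library the range was -0.0296 to 0.0546 for Top2a, -0.0033 to 0.0653 for Mki67, -0.0264 to 0.0333 for Ccna2, -0.0309 to 0.0533 for Plk1, -0.0422 to 0.0118 for Incenp, -0.0512 to 0.0274 for Bub1, -0.0190 to 0.0644 for Bub1b, -0.0659 to 0.0170 for Nuf2, -0.0239 to 0.0245 for Spc25, -0.0537 to 0.0191 for Tacc3, -0.0274 to 0.0279 for Tpx2, -0.0089 to 0.0397 for Kif4, -0.0116 to 0.0484 for Kif2c, -0.0096 to 0.0787 for Kif11, -0.0400 to 0.0029 for Cdc20 and -0.0101 to 0.0478 for Racgap1. The cause of these changes was not tested. Depth per value is unknown, so small changes of the members cannot be set against counting error.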
